A study of Drosophila melanogaster with 4 samples.

Results

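The X chromosome of Drosophila melanogaster carried 274 stretches of at least 5000 bp in which no H4K16ac cluster was called. H4K16ac is histone H4 acetylated at the lysine at position 16 of its tail, and a cluster is a region that the authors named as significantly enriched for it in chromatin immunoprecipitation followed by sequencing (ChIP-seq). The stretches were found by pooling the enriched regions of all 3 deposited lists on the X, taking their union, and keeping every uncovered length of 5000 bp or more between the first and the last base of the X given in the file headers. They are 274 of 1470 uncovered gaps on the X, and of 2347 such stretches on the X and the 4 large autosome arms. Together they made up 5.20 Mb, or 23.2% of the 22.4 Mb of the X. The stretches were chosen by the called clusters of all 3 lists, so their number, lengths and positions are a description and were not tested.

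The chromatin came from fly heads. The strain was Oregon-R, which is wild type, and the stage is given as mixed adult. Both ChIP replicates share this strain, genotype and stage. No sex and no treatment are given, and the cages were run in cycles of 22 days with overlapping adult populations. The 4 samples are 2 ChIP libraries and 2 inputs of unprecipitated chromatin, and the lists used here are 1 for each ChIP replicate and a combined list for the replicate set. No label says that the replicates came from separate flies, and the spread between them can be technical.

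In flies, H4K16ac is made by the acetyltransferase MOF. In males MOF acts within the MSL dosage compensation complex, which first binds a set of high-affinity sites on the single X and then spreads to active genes around them, where the mark covers gene bodies. The female X lacks this complex and carries the mark mainly at active promoters, as the autosomes do in both sexes. Inactive genes and the DNA between genes carry less of it.

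The lists carry no read numbers, so sequencing depth is unknown. A stretch is a length without a called cluster, which is not the same as a length without acetylation, and the share of it where reads could be placed is not known. Clusters covered 58.7% and 58.4% of the X in replicates 1 and 2, and 69.8% in the combined list. The authors also named regions of depletion, and 0 of them lay on the X in any list.

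Most stretches were short and a few held much of the length. The median stretch was 8931 bp long, with quartiles of 6334 and 15492 bp. Of the 274, 153 were between 5 and 10 kb long, 64 between 10 and 20 kb, 37 between 20 and 50 kb, and 20 were 50 kb or longer. The 7 stretches of 100 kb or more held 1.24 Mb, or 23.8% of the summed length, while the 153 shortest held 20.4%. The longest 10 held 28.8%, and 31 stretches of 37.4 kb or more reached 50% of the length. The 1196 gaps under 5000 bp, which the threshold leaves out, added 1.53 Mb, so the stretches held 77.3% of the X that no list covered. At the threshold the lengths ran on without a break. The 3 shortest stretches measured 5000, 5007 and 5029 bp, and the 3 longest gaps left out measured 4999, 4994 and 4985 bp.

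**Figure D1:**
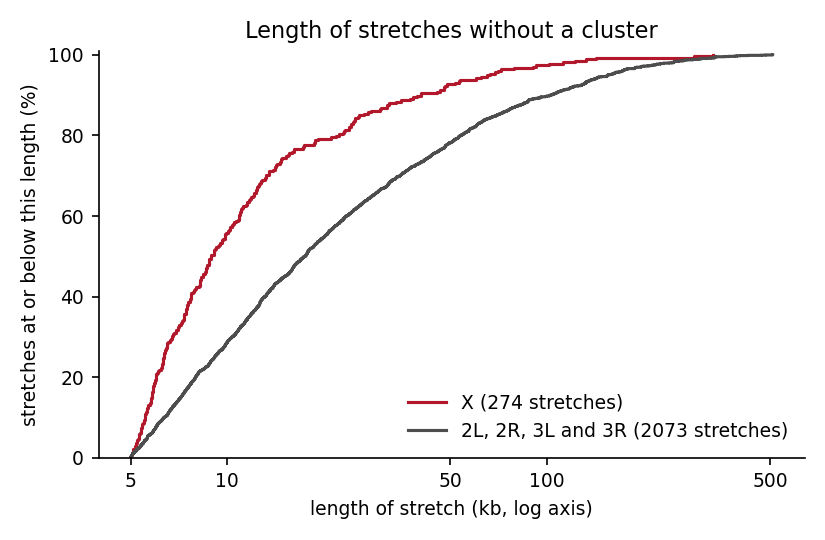
Length of uncovered stretches of 5 kb or longer (kb, log axis) against the percent of stretches at or below that length, for the X and for 2L, 2R, 3L and 3R together. The X curve lies to the left, with a median of 8.93 kb against 17.5 kb on the autosomes.

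The longest stretch lay near the end of the X that adjoins the centromere, from 21511559 to 21843459, and measured 331901 bp. Without a cluster around it were 341664 bp in replicate 1, 332940 bp in replicate 2, and just its own 331901 bp in the combined list. The lists thus nearly coincided there. Its sides were unlike each other. On the right a broad domain began within 804 bp in every list, with a width of 77156 bp (score 2.75) in replicate 1 and 81065 bp (2.52) in replicate 2. The combined list gave 81917 bp and 2.61. The score is the authors' value for a cluster, read here on a log2 scale and compared within a list only. On the left the stretch ended at a 1523 bp cluster of score 0.44 in the combined list, beside a 1413 bp cluster of score 0.63 in replicate 2. Replicate 1 had no such narrow cluster, and its nearest on that side was a 33705 bp cluster of score 3.15, 8969 bp further out.

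The second longest, from 7255760 to 7545822, measured 290063 bp and lay far from either end of the X. It had 306804 bp without a cluster around it in replicate 1 and 318447 bp in replicate 2. Both of its borders were narrow and of low score in the combined list, at 1081 bp and 0.56 on the left and 1773 bp and 0.41 on the right. Neither of these 2 combined clusters had a counterpart in a replicate list, where the nearest clusters on the left were 12281 and 18370 bp away. No other stretch was longer than 142864 bp.

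The third stretch showed the largest difference between the replicates among the 10 longest. It ran from 22083758 to 22226621 over 142864 bp, and the uncovered length around it was 275659 bp in replicate 1 against 147611 bp in replicate 2. The left border in replicate 2 was a single 1754 bp cluster of score 0.60, and replicate 1 had none for 131382 bp on that side. The fourth, of 133268 bp from 2859955 to 2993222, had 160436 and 165897 uncovered bp in replicates 1 and 2. The ninth, of 90385 bp from 16014911 to 16105295, was uncovered over 150949 and 149597 bp. The replicates were close to each other at the ninth, and the combined list cut it shorter on both sides with clusters of 1925 bp (score 0.59) and 2749 bp (score 0.61).

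The fifth and the eighth stretch were neighbours. They ran from 20402873 to 20525565 (122693 bp) and from 20533744 to 20626464 (92721 bp), and 8178 bp lay between them. Every list had a cluster in this interval, of 4078 bp (score 0.83) in replicate 1 and 4117 bp (0.60) in replicate 2. The wider of 2 in the combined list measured 6000 bp (0.55). A narrow island was thus called in both libraries between a pair of long stretches.

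The sixth and the seventh stretch began directly beside broad clusters. The sixth, from 8616561 to 8729417 (112857 bp), started within 83 bp of a cluster of 16942 bp (score 2.86) in replicate 1 and 13817 bp (2.85) in replicate 2, which the combined list gave as 17075 bp (2.74). The seventh, from 17200242 to 17301668 (101427 bp), started within 44 bp of a cluster of 47540 bp (score 2.05) in replicate 1 and 47600 bp (1.91) in replicate 2, which the combined list gave as 48026 bp (1.97). At these left edges a strongly scored domain stopped at nearly the same base in each list. On its right the seventh ended in the combined list at a 1169 bp cluster of score 0.61, and broad clusters of 23966 and 20173 bp followed after 4045 and 4379 bp in replicates 1 and 2. The tenth, from 18134373 to 18213623, measured 79251 bp and was uncovered over 82403 and 87688 bp in replicates 1 and 2.

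**Figure D2:**
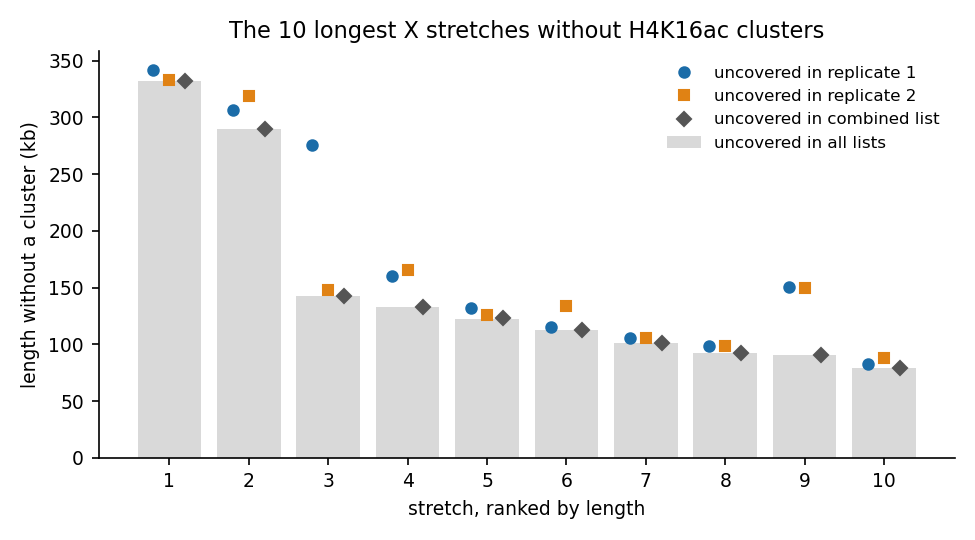
The 10 longest stretches by rank against the length without a cluster (kb). Grey bars give the length free of clusters in all lists, and points give the uncovered length around it in each list. By the rule no point can lie below its bar. Every replicate point lies above it, and replicate 1 stands apart at the third stretch (275659 bp).

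For the 10 longest, the uncovered length of the combined list equalled that of the union in 9. In 10 of 10 it was longer in replicate 1, and in 10 of 10 in replicate 2. By the rule it cannot be shorter in any list than in the union, so this direction was set in advance. The uncovered length was more than 1.5 times the union length in 2 of them in replicate 1 and in 1 in replicate 2.

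Stretches occurred along the whole X and held most of the sequence at its centromere-side end. The first lay from 56443 to 65350 and the last from 22399024 to 22404550. With the X divided into 4 equal parts, the last part held 54 stretches with a median of 12636.5 bp, which took up 32.4% of it and included 11 of the 20 that were 50 kb or longer. The first part held the most, 92, but with a median of 9000.5 bp they took up 24.1%. The second and the third part held 59 and 69 and were taken up to 17.7% and 18.4%. Of the 10 longest, 6 lay in the last part.

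In bins of 1 Mb the share of the X in stretches ranged from 3.46% between 11 and 12 Mb to 54.8% between 21 and 22 Mb. The last bin, which holds only 422827 bp, reached 80.3%. Clusters covered 11.1% of that last bin in replicate 1 and 11.4% in replicate 2. Between 11 and 12 Mb, where 6 stretches were left and the longest was 6.36 kb, they covered 81.9% and 83.1%. A second run rich in stretches lay between 2 and 5 Mb, with 31.1, 36.8 and 35.3% of the 3 bins in them, and the bin from 7 to 8 Mb reached 48.1%. In all, 8 of 23 bins lay above 30% and 5 below 10%. Coverage of a bin differed between the replicates by at most 3.19 percentage points.

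**Figure D3:**
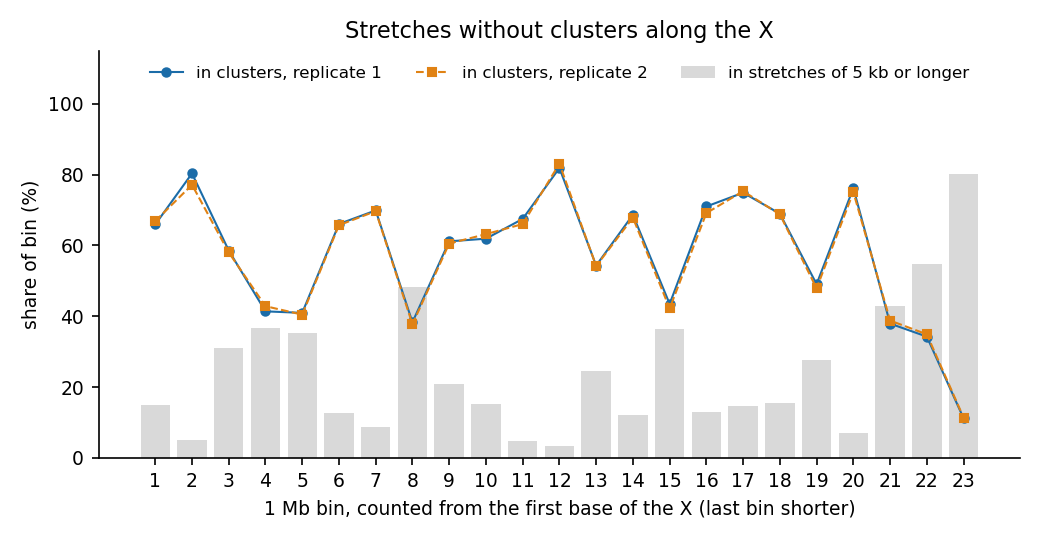
Share (%) of each 1 Mb bin of the X, counted from its first base, that lay in stretches of 5 kb or longer (bars) and in clusters of replicate 1 and replicate 2 (lines). The bars are lowest at bin 12 (3.46%) and highest at bin 23 (80.3%), and the replicate lines lie on each other.

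Many neighbouring stretches were parted by small islands of signal. Of the 273 intervals between consecutive stretches, 110 (40.3%) were shorter than 5 kb, with a median of 1603 bp, and 100 of these consisted of a single block of clusters. At the other end, 58 intervals were 100 kb or longer. The longest ran from 16242816 to 16756641 (513.8 kb), where clusters covered 97.5% and 95.7% in replicates 1 and 2, and 98.7% in the combined list. All 58 held clusters in each of the 3 lists, and their highest score had a median of 2.78 and 2.55 in replicates 1 and 2, and 2.50 in the combined list.

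The small islands rested mostly on the combined list. Of the 110 under 5 kb, 74 held a cluster of the combined list and none of a replicate list, 32 held clusters in 2 of the lists, and 4 held clusters in all 3. The narrowest X cluster measured 1301 bp in each replicate list and 1001 bp in the combined list. An island shorter than 1301 bp could therefore hold no replicate cluster, so part of the 74 was set in advance. How large that part is was not counted. Of the 51 islands between 20 and 100 kb, 50 held clusters in all 3. The median of the highest combined score was 0.55 in the islands under 5 kb and 1.68 in those of 20 to 100 kb.

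When stretches parted by less than 5 kb were joined, 164 groups resulted, of which 112 were single stretches and 52 held 162 stretches. The group of most members joined 10 stretches from 7008546 to 7126618 (118.1 kb), of which 81.2% was free of clusters. Inside it were 2 clusters of replicate 1 and 3 of replicate 2, with 11 of the combined list. A group of 6, from 2689362 to 2841398 (152.0 kb), held 0 clusters of either replicate and 5 of the combined list. Joined with a neighbour, the second longest stretch spanned 302.0 kb with 1 combined cluster inside it, and the third spanned 211.9 kb.

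The clusters that border the stretches were mostly narrow. Bordering clusters were the nearest on each side of a stretch in a given list, each counted once. In replicate 1, 280 clusters bordered stretches. Their median width was 2202 bp, and that of the other 766 X clusters was 2442.5 bp. In replicate 2, 285 did, and the medians were 2057 bp and, over the other 833, 2566 bp. The mean of the replicate medians was 2129.5 ± 103 bp for bordering and 2504.25 ± 87.3 bp for other clusters (SD, n = 2). The difference had the same direction in both lists but was larger in replicate 2. The SDs measure the spread of each median between lists, not that of the difference within a list. In the combined list 441 clusters bordered stretches, with a median of 1741 bp against 2293 bp for the other 1049. These widths come from the calls that define the stretches, so no test was made.

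The share of broad clusters among the borders was close to that on the whole X. Clusters of 10 kb or wider made up 19.5% and 19.7% of all X clusters in replicates 1 and 2, and 14.8% in the combined list. Among bordering clusters they were 58 of 280 (20.7%) in replicate 1 and 54 of 285 (18.9%) in replicate 2. The combined list had 55 of 441 (12.5%). Broad border clusters scored higher than narrow ones in each list, and so did broad clusters elsewhere on the X. Their median score was 2.49 and 2.31 in replicates 1 and 2, and 2.26 in the combined list, against 0.84, 0.74 and 0.54 for bordering clusters under 10 kb. Among the other X clusters the medians were 2.38, 2.17 and 1.91 for broad and 0.83, 0.74 and 0.54 for narrower ones. Broad border clusters thus had a higher median than other broad clusters in all 3 lists, a difference that was not tested.

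Over all widths the scores of the borders were close to those of other clusters. The median was 0.90 for bordering and 0.87 for other X clusters in replicate 1, and 0.78 against 0.79 in replicate 2. Over both replicates this gave 0.84 ± 0.083 against 0.83 ± 0.058 (SD, n = 2), and the difference was of opposite direction in the 2 lists. In the combined list the medians were 0.55 and 0.56.

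**Figure D4:**
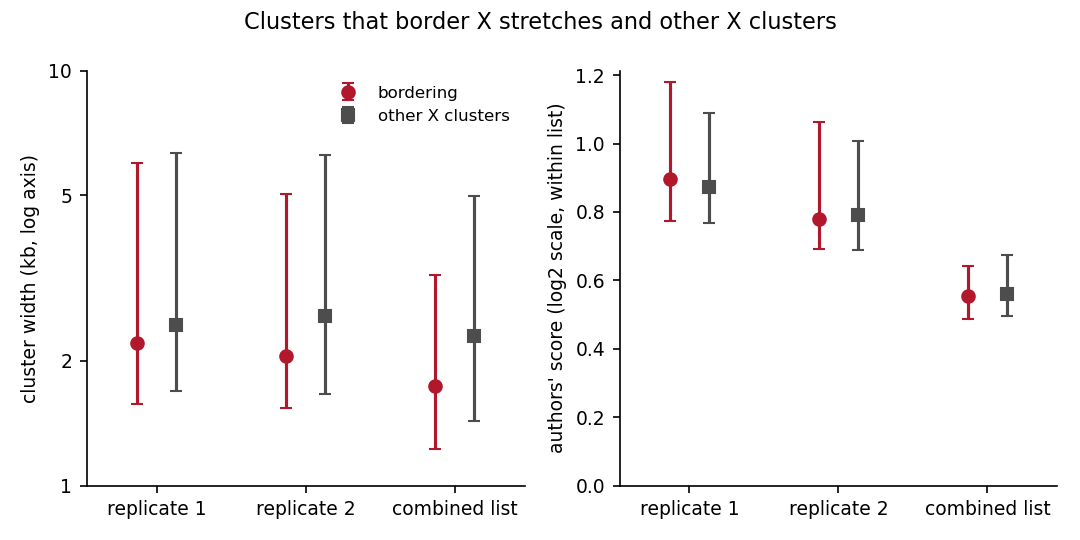
Width (kb, log axis) and score (authors' value, log2 scale) of X clusters that border stretches and of the other X clusters, in each list. Points are medians and bars span the quartiles. Bordering clusters are narrower in every list (1741 against 2293 bp in the combined list), and their scores overlap with those of the others.

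Most stretches had a broad cluster on neither side. Broad clusters were 14.8 to 19.7% of all X clusters. That share is per cluster, and a stretch has 2 sides, so it cannot be set directly against shares of stretches. In the combined list 18 stretches had a cluster of 10 kb or wider on both sides, 25 on 1 side and 231 on neither. Replicate 1 gave 18, 44 and 212 for these classes, and replicate 2 gave 14, 47 and 213. In the combined list all 18 stretches between broad clusters were under 10 kb long. In the replicate lists 13 of 18 and 12 of 14 were, while 153 of all 274 stretches are under 10 kb.

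What bordered the longest stretches depended on the list. Of the 20 stretches of 50 kb or more, 9 had a broad cluster on at least 1 side in replicate 1 and 11 in replicate 2, but 3 in the combined list. Over all 274 these numbers were 62, 61 and 43. Clusters bordering the 20 were broad in 35.3% of cases in replicate 1 and 31.4% in replicate 2, above the 19.0% and 19.3% of the remaining clusters. In the combined list this share of clusters went the other way, at 3 of 40 (7.50%) against 15.0% of the remaining ones. Counted by stretch, that list gave a broad cluster on at least 1 side for 15.0% of the 20 and 15.7% of all 274. By median width the clusters bordering the 20 were wider than the remaining ones in replicate 1 (3016.5 against 2363 bp) and replicate 2 (2751 against 2410 bp). In the combined list they were narrower (1481 against 2007 bp). Across the 274 stretches the rank correlation of length with the width of the wider border was 0.021 and -0.023 in replicates 1 and 2, and -0.31 in the combined list. These describe stretches that share libraries and border clusters.

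The combined list set nearly all the edges. Of 548 edges, 489 (89.2%) lay at the end of a combined cluster, 35 at one of replicate 1 and 25 at one of replicate 2, and a cluster of more than 1 list can end at the same base. The nearest cluster of a replicate list was a median of 6606.5 bp beyond the edge for replicate 1 and 6624.5 bp for replicate 2. The nearest cluster of 10 kb or wider was a median of 30.6 and 30.8 kb away in replicates 1 and 2, and 22.0 kb in the combined list. For the 20 stretches of 50 kb or more these distances were 14784.5, 16004.5 and 9634 bp. A stretch thus ended as a rule at a narrow combined cluster, with broad domains some way further out.

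Outside the edges coverage peaked, fell and then rose slowly. In the replicates it was 19.7% and 18.5% in the first 500 bp, reached 30.4% and 29.5% in the 500 bp that began 1001 bp outside, and was 22.6% and 22.3% in those that began 2001 bp outside. The combined list went from 97.8% in the first 500 bp to 75.2% and 40.5% at the same distances. In the 500 bp that began 5001 bp outside an edge, 23.1% and 22.9% of positions lay in a cluster of replicates 1 and 2, and 43.7% in one of the combined list. In the last 500 bp up to 50 kb these shares were 46.5, 46.4 and 61.8%. These last shares remained below the share of the whole X in each list, 58.7, 58.4 and 69.8%. Positions outside an edge that fall in a neighbouring stretch were counted, and by the rule no list covers them. Of the 273 intervals between stretches, 110 were shorter than 5 kb. The fall after the peak and the level below the whole X are thus partly set by the choice of stretches. The high combined value directly at the edge follows from the definition of an edge and from a narrowest combined cluster of 1001 bp.

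**Figure D5:**
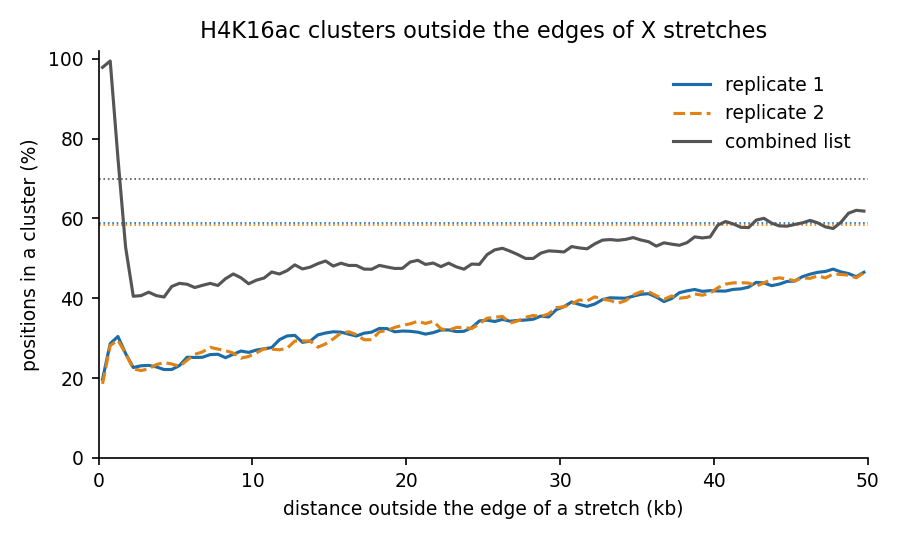
Positions in a cluster (%) against the distance outside the edge of a stretch (kb), in steps of 500 bp over both edges of all 274 stretches. Dotted lines give the covered share of the whole X in each list. Positions in neighbouring stretches, uncovered by the rule, are counted. Both replicate lines peak at 30.4% and 29.5% just outside the edge, fall, and rise together from 23.1% and 22.9% at 5 kb to 46.5% and 46.4% at 50 kb.

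Clusters of a replicate that had not been used to choose the stretches covered little of their length. Stretches of 5000 bp or more were taken from 1 replicate list alone and measured in the other. Replicate 1 gave 323 stretches (8.19 Mb), and clusters of replicate 2 covered 6.04% of them. Replicate 2 gave 307 stretches (8.14 Mb), and clusters of replicate 1 covered 5.69% of them. The mean was 5.86% ± 0.251, against 58.6% ± 0.222 of the whole X (SD, n = 2). The difference is larger than the spread between the replicates, and it was not tested. The covered share was lower in longer stretches, at 17.3% ± 1.71 for those of 5 to 10 kb, 10.8% ± 0.0831 for 10 to 20 kb, 6.05% ± 0.119 for 20 to 50 kb and 1.85% ± 0.191 for 50 kb or more. A cluster of given width takes a larger share of a short stretch. The share of stretches wholly free of the other replicate's clusters did not rise with length. Its mean was 25.6, 18.5, 25.8 and 15.7% in these classes, from short to long.

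Few of these stretches were wholly free of the other replicate's clusters. Of those from replicate 1, 75 (23.2%) had no cluster of replicate 2, and of those from replicate 2, 68 (22.1%) had none of replicate 1. The clusters called inside were narrow. In replicate 2, 212 of 1118 X clusters lay wholly inside stretches of replicate 1, which made up 36.5% of the X, and 181 lay across an edge. Those inside had a median width of 1558 bp and a median score of 0.71. The 534 clusters under 10 kb that lay outside these stretches had medians of 2194.5 bp and 0.76. In replicate 1, 205 of 1046 X clusters lay wholly inside stretches of replicate 2, which made up 36.3% of the X, and 185 lay across an edge. Those inside had medians of 1568 bp and 0.80, against 2222 bp and 0.83 for 499 clusters under 10 kb outside. The score medians inside were thus lower by little in both directions, and the highest score inside was 2.15 in replicate 2 and 1.38 in replicate 1. None of those inside was 10 kb or wider, in either direction. A cluster inside a short stretch has to be narrow, so the widths are partly set by the choice.

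The combined list divided and removed many stretches that neither replicate covered. Without it, the 2 replicate lists gave 312 stretches with a median of 10240 bp, which held 32.4% of the X. In 228 of these the combined list had at least 1 cluster lying wholly inside, 549 clusters in all, which is 36.8% of the combined X clusters. They had a median width of 1319 bp and a median score of 0.52, against 3444 bp and 0.60 for the other 941. The widest of the 549 measured 4294 bp, so all clusters of 10 kb or wider were among the other 941. The 549 were chosen as lying inside lengths that neither replicate covers, so this contrast is partly set by the choice. With the whole combined list added, including its clusters that reach across an edge, 122 of the 312 no longer held a stretch of 5000 bp, 142 held 1 and 48 were split into several. How the authors combined the replicates is not given, so what these added clusters rest on cannot be told.

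One added cluster had a score unlike the rest and was chosen after its values were seen. It lies from 22013710 to 22014710, is 1001 bp wide and scored 3.09, while the next highest of the 549 scored 1.20. It borders the stretch from 22014711 to 22080035 (65325 bp). Neither replicate list has a cluster there, and the uncovered length across it was 275659 bp in replicate 1 and 127622 bp in replicate 2.

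Compared with the 4 large autosome arms, stretches without a cluster on the X were fewer per length and shorter. The same rule gave 2073 stretches on 2L, 2R, 3L and 3R, which held 85.4% of these arms against 23.2% of the X. In replicate 1 alone the shares were 90.5% and 36.5%, and in replicate 2 they were 88.8% and 36.3%. The X had 12.2 stretches per Mb and the autosomes had 21.5. The median length was 8.93 kb on the X, against 15.7 kb on 2R, 17.6 kb on 3L, 17.9 kb on 3R and 21.5 kb on 2L. Stretches of 50 kb or more were 20 of 274 (7.30%) on the X and 452 of 2073 (21.8%) on the autosomes. The longest stretch of the X, at 331.9 kb, was exceeded by 16 on the autosomes, the longest of which was 509.9 kb. Called clusters define the stretches on every arm, so these values describe the arms and were not tested.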

How the data were processed

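Enriched regions came from ChIP-seq of fly head chromatin. Per the submitters' processing notes, the authors used Bowtie 0.12.7 for alignment, and coordinates are 1-based on FlyBase release 5, per the file headers. Not given in the sources used here are the region caller, its thresholds and how the authors combined the replicates. The deposited score has no stated scale and was taken as log2. Relative to the most shared score of a list, 12.2% and 9.88% of the scores in replicates 1 and 2, and 7.19% in the combined list, equalled the log2 of a quotient of whole numbers no larger than 60 (tolerance 1e-06), against at most 0.667% for natural or decimal logarithms. Of the 208, 224 and 226 clusters of 10 kb or wider in these lists only 0, 2 and 1 did, so for broad clusters the scale is carried over.

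Depleted regions were set aside, and the cluster that runs past the last base of the X by at most 370 bp was trimmed there. Overlap of 1 bp counted as covered. Named stretches are the 10 longest, the first and last, and the 3 on each side of the threshold. No list or rule was independent of earlier knowledge: the stretches, lists and alternatives were chosen with earlier results of these data known. Gap finding was tested on simulated lists. No gene table or genome of release 5 was used here, so genes and sequences of the stretches were not analysed here. Depth per sample is unknown. No test between samples was made, since lists of the ChIP group only were used. Python 3.11.15, numpy 2.4.6, pandas 2.3.3 and matplotlib 3.10.9 were used. The alternatives tried are given at the end.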

Additional observations from a re-analysis of the deposited data

How the results depend on the processing

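The number of stretches, 274, was 275 without the list of replicate 2, 276 without that of replicate 1 and 277 with the combined list only. It was 312 without the combined list and 301 with the upper 50% of clusters by score. From 10 kb it was 121, and from 2000 bp it was 558. The share of the X in stretches, 23.2%, was 32.4% without the combined list, 25.9% with the upper 50% by score, 18.5% from 10 kb and 27.3% from 2000 bp. The median length, 8931 bp, was 10240, 9666, 18718 and 4962.5 bp under these 4 settings. The median border width, 2129.5 bp, was 1741 bp in the combined list, 1882.75 bp for stretches from 10 kb and 1684.5 bp for clusters that end exactly at an edge. The median border score, 0.84, was 0.55 in the combined list. The share of stretches with a broad border, 15.7%, was 22.4% in the replicate lists, 6.61% for stretches from 10 kb, 23.0% with broad set at 5000 bp and 7.30% at 50000 bp. The share of the autosomes in stretches was 3.68 times that of the X, 4.39 times from 10 kb and 2.72 times without the combined list. The share of 1 replicate's stretches covered by the other, 5.86%, was 4.30% from 10 kb and 4.40% counting only clusters wholly inside. Leaving out a replicate's own list moved the number, share and median length of stretches by less than the spread between the replicate lists. The ratio to the autosomes also moved by less. The combined list stayed in and set 489 of 548 edges on the X, so these values could move little. The small moves thus do not show how far the stretches rest on 1 replicate. For border width (2057 and 2202 bp) and score (0.78 and 0.90), leaving out a replicate leaves 1 list of the 2 averaged. That move cannot exceed the spread between the lists. Leaving out a replicate was not run for the share with a broad border or for the share covered by the other replicate. A shorter or longer minimum changes these values by its own construction. The cause of the other differences was not tested. No paired analysis was possible because no result comes from a test and only lists of the ChIP group were used. Depth is unknown and limits every statement on a length without a cluster.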
